A study of Homo sapiens with 16 samples.

Results

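Enzymes and regulatory subunits of the S-adenosylmethionine and one-carbon cycles were measured as mRNA in a study of cytoplasmic cap methylation. The 10 human genes described here were chosen by name for their roles in methyl supply, and are MAT2A, MAT2B, AHCY, AHCYL1, MTR, MTRR, SHMT1, SHMT2, MTHFD1 and MTHFD2. All 10 were found by Ensembl identifier among the 60107 genes counted. S-adenosylmethionine is the methyl donor of nearly all cellular methyltransferases, the cap methyltransferase RNMT included. Each transfer leaves S-adenosylhomocysteine, which inhibits methyltransferases until it is hydrolysed, and the homocysteine released is turned back into methionine with a methyl group carried by folate. That folate receives its one-carbon unit mainly from serine, through parallel sets of enzymes in the cytosol and the mitochondria.

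The cells were U2OS-TR, a human osteosarcoma line that stably expresses the tetracycline repressor. In U2OS-TR/ΔN-RNMT cells, doxycycline switches on ΔN-RNMT, a C-terminal portion of RNMT with a mutated S-adenosylmethionine site and a nuclear export signal, from a CMV promoter with tetracycline operators. This line was 1 clone, picked for its high expression, so a trait of the clone and an effect of the transgene are hard to separate. There were 5 uninduced and 5 induced libraries of the transgene line, and from the parental line, 3 libraries with doxycycline and 3 without. The parental line lacks the transgene and serves as the control for doxycycline itself. All groups carried the repressor. Cells were grown for 48 h, treated with 1 μg/ml doxycycline or left without it, and lysed 24 h later, and nuclei were removed so that cytoplasmic RNA was measured. The protocol recorded with the libraries names doxycycline for all of them, so groups were taken from the sample titles. The assay, QuantSeq REV, yields 1 tag at the 3′ end of each sampled mRNA, so counts are not scaled by gene length.

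The genes lie on 7 chromosomes of GRCh38. MAT2A (chr2:85539168-85545281, plus strand, 9 exons) and MAT2B (chr5:163503114-163519558, plus, 7 exons) make S-adenosylmethionine. AHCY (chr20:34280268-34311802, minus, 10 exons) and AHCYL1 (chr1:109984765-110023742, plus, 17 exons) belong to the S-adenosylhomocysteine hydrolase family. MTR (chr1:236795260-236921278, plus, 33 exons) and MTRR (chr5:7851186-7906025, plus, 15 exons) remake methionine. The serine and folate enzymes are SHMT1 (chr17:18327860-18363563, minus, 12 exons), SHMT2 (chr12:57229573-57234935, plus, 12 exons), MTHFD1 (chr14:64388031-64463457, plus, 28 exons) and MTHFD2 (chr2:74186172-74217565, plus, 8 exons). Exons are those of the canonical GENCODE transcript.

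A cap is added to the first transcribed base, so the start windows of the 3 increased genes with a RefSeq promoter entry are shown, on GRCh38.p14. Each has 20 bases before the RefSeq start in lower case and the first 10 bases from that start in capitals.
MAT2B (chr5:163503044-163503073, plus): aatcttgacaggaagttgttGGGTTTTTGT
SHMT1 (chr17:18363541-18363570, minus): gcgcctccgggggcggggccAAGCCCAAGC
MTHFD2 (chr2:74198595-74198624, plus): tggcccgcgcgcgcgcttccCTCCCGGCGC
Among the 8 genes with an entry, MTHFD2 alone began with C followed by at least 4 pyrimidines, the letters of a terminal oligopyrimidine start, as did 4.04% of 27305 promoters. RefSeq and GENCODE starts differ for all 3. The RefSeq starts of MTHFD2 and SHMT1 lie inside the longer GENCODE genes, and that of MAT2B lies upstream of its GENCODE gene. Promoter entries for MTRR and SHMT2 were not used here.

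The 120 bases upstream of SHMT1 and MTHFD2 are shown because these genes had the closest paired pattern across libraries, with the letters CCAAT on either strand in capitals.
SHMT1 (chr17:18363551-18363670, minus): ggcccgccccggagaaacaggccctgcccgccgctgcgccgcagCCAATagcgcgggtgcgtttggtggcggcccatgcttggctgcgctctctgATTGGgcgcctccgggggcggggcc
MTHFD2 (chr2:74198495-74198614, plus): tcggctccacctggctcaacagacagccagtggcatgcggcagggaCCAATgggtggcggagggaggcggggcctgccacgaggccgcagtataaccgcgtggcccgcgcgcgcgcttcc
In the 250 bases before the start, on both strands, CCAAT occurred in 5 of the 8 genes (MAT2A, MTR, SHMT1, MTHFD1 and MTHFD2) and in 33% of all promoters. GGGCGG occurred in 4 of them and in 42.3% of all promoters. CACGTG occurred in MTHFD1, against 6.49% of all promoters, and TGATGNAA in none of the 8, against 3.19%.

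Gene counts per library ran from 12527183 to 23251834 for transgene cells and from 1473286 to 3214808 for parental cells, so the parental values are the less precise. RNMT, whose tags from the gene and the transgene were not told apart, lay between 55.6 and 112 CPM (counts scaled to a common library total) without doxycycline and between 266 and 458 CPM with it. Of 9 mesenchymal and bone markers, COL1A2 and BGLAP were at 0 in all uninduced libraries, and the summed level of the 9 was between 353 and 676 CPM uninduced and between 525 and 914 CPM induced. Of the 6 tested, VIM rose by 1.44 ± 0.37 (log2, SE), and RUNX2 (1.16) and CDH11 (0.75) rose too, while COL1A1 (0.00029), SPARC (0.05) and THY1 (-0.35) were not called. EPCAM and CLDN4 held most of the level of the 5 epithelial markers. Group means were at most 0.12 CPM for CDH3 and ESRP1 and at most 1.64 CPM for CDH1. The 5 summed to between 12.3 and 24.9 CPM in the transgene line and between 40.7 and 70.1 CPM in the parental one. CLDN4 held up to 65.9 CPM in an untreated parental library. Leukocyte markers summed to at most 0.746 CPM in the transgene line and 1.84 CPM in the parental one. The nuclear RNAs MALAT1, NEAT1 and KCNQ1OT1 summed to between 737 and 931 CPM uninduced and between 492 and 897 CPM induced, and NEAT1 fell by 0.44 ± 0.16 (edgeR adjusted p = 0.0410). They summed to between 471 and 1663 CPM in untreated and between 269.7 and 453 CPM in treated parental libraries, where MALAT1 was at -2.57 ± 0.54 without overlap (adjusted p = 0.997). Mitochondrial genes took between 0.854% and 1.52% of counts in the transgene libraries and between 1.76% and 9.38% in the parental ones. The part of these shifts in the results was not tested. Libraries stood apart within their groups. For the 10 genes, uninduced replicate 5 held the highest uninduced level of 5 and uninduced replicate 3 the lowest of 6. Induced replicate 2 held the lowest induced level of 4 (MAT2B, MTRR, SHMT1 and MTHFD2). Uninduced replicate 5 and induced replicate 2 were also the deepest libraries of their groups. Values without them are given beside the calls of the 10 genes that they change, and the cause was not tested.

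The lines also differed in how tags fell on genes that converge on opposite strands. Over pairs of such protein-coding genes with at least 50 counts on the larger, the median ratio of smaller to larger ran from 0.0625 to 0.0841 over the transgene libraries and from 0.205 to 0.327 over the parental ones. MMACHC, a vitamin B12 chaperone, lies tail to tail with PRDX1, and the ratio of their counts was between 0.00300 and 0.0105 in the transgene libraries and between 0.998 and 1.02 in the parental ones. Tags outside genes, per count in genes, ran from 0.0744 to 0.1061 over the transgene libraries and from 1.1097 to 1.4972 over the parental ones. The doxycycline control rests on the parental counts, and whether counting differed between the lines was not tested. Use of strand in counting is not given in the sources used here, and levels are not compared between the lines. The 3′ ends of MAT2A, SHMT1, SHMT2, MTHFD1 and MTHFD2 are covered by an opposite-strand gene, from which their tags may not be told apart. That of AHCY is covered by a same-strand gene, ENSG00000250917, with at most 6 counts in the transgene and 3 in the parental libraries. The ratio of MAT2A to its partner GGCX was between 0.0378 and 0.197 in the transgene libraries and between 0.111 and 0.25 in the parental ones. SMCR8, the partner of SHMT1, had 0 counts in the parental libraries. Counts that mapped to several places were not assigned to genes, and the 16 pseudogenes of these enzymes together held at most 3 counts in any library.

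In the transgene line, 4 of the 10 genes rose on induction and 1 fell. MAT2B, MTRR, SHMT1 and MTHFD2 were higher and SHMT2 was lower in induced cells, by edgeR's quasi-likelihood test with a threshold of 0.05 on the Benjamini-Hochberg adjusted p. The background is large. Of 13038 genes tested, 39.8% were called, with 20% of the tested genes higher and 19.8% lower. The median log2 fold change was 0.42 over the 10 genes and 0.04 over all genes. None of the 10 had induced and uninduced values that did not overlap, against 7.3% of all genes. Scaling by total counts alone, without trimmed means of M values (TMM), moved the median of all genes to 0.28 and the split of all calls from 2604 higher and 2579 lower to 4022 and 1401. With 1 surrogate variable in the fit none of the 10 was called, and 1 gene in all was. Calls over all genes also moved when 1 library was left out. Without uninduced replicate 5, 6 of the 10 were higher and 1 lower, against 4049 and 3555 genes in all. Without uninduced replicate 1 or 2, or induced replicate 1, 3 or 4, only MAT2B was called. In those fits 916 to 1111 genes in all were higher and 929 to 1496 lower. Without uninduced replicate 3 or 4 or induced replicate 5 only MAT2B and MTHFD2 were called. There 1385 to 1758 genes in all were higher and 1908 to 2008 lower. Levels are relative amounts in a bulk sample, so fewer cells with an mRNA and less of it per cell cannot be told apart. The plot of levels by library shows the overlap.

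**Figure D1:**
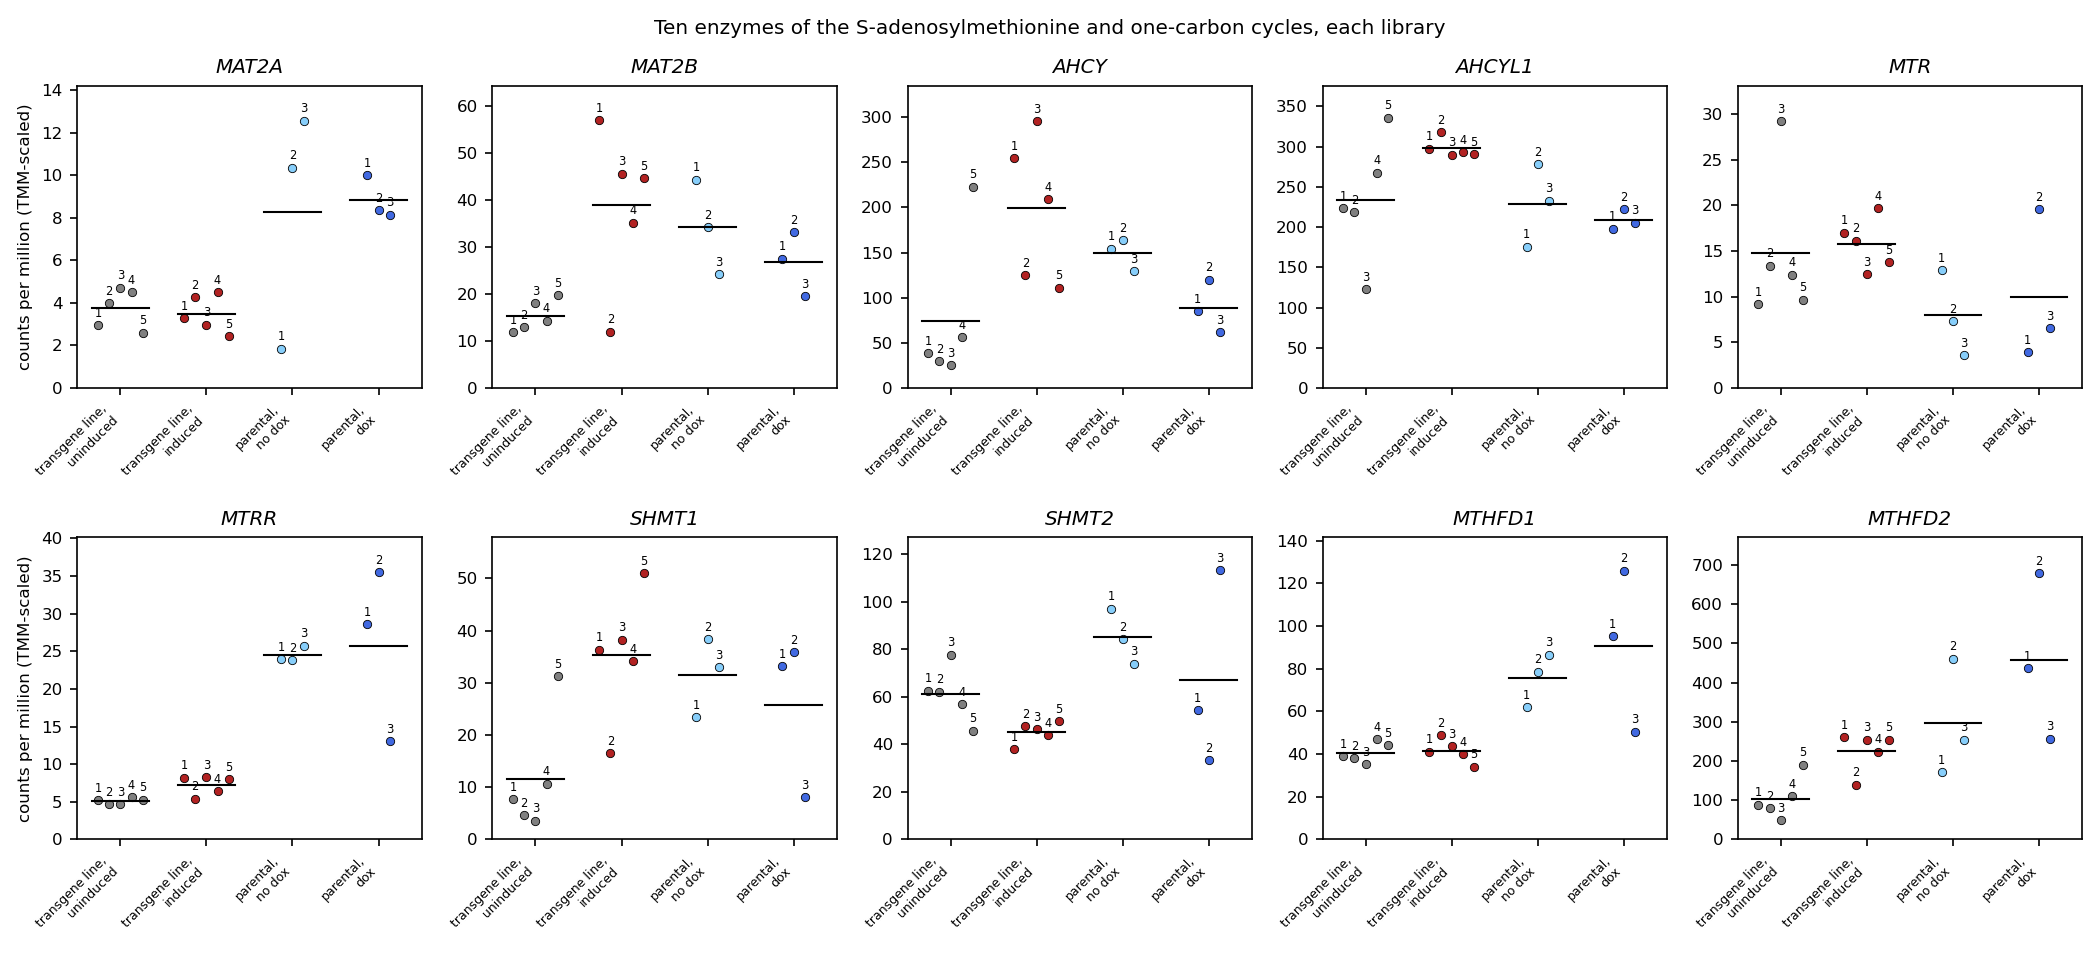
Level of each gene in CPM (vertical axis, TMM-scaled within a line) in the 5 uninduced, 5 induced, 3 untreated parental and 3 doxycycline-treated parental libraries. Points are libraries numbered by replicate and bars are group means. In AHCY, SHMT1 and MTHFD2, uninduced replicate 5 lies above the other uninduced libraries, and in MAT2B induced replicate 2 lies at 12 CPM among the uninduced ones.

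S-adenosylmethionine synthesis showed a rise of the regulatory subunit without a measured change of the catalytic one. MAT2A encodes the catalytic subunit of methionine adenosyltransferase II, and its mRNA was scarce in these tags. It measured 2.95, 3.98, 4.72, 4.5 and 2.6 CPM in uninduced replicates 1 to 5 and 3.28, 4.28, 2.98, 4.52 and 2.43 CPM in induced replicates 1 to 5. The ranges nearly coincided, and the log2 fold change was -0.09 ± 0.24 (SE, n = 5 each, edgeR adjusted p = 0.765). These levels rest on between 41 and 98 counts. Its sign turned with total-count scaling (0.15) and with the surrogate variable (0.22). GGCX, on the opposite strand, covers the 3′ end of MAT2A and held between 392 and 1085 counts in the same libraries.

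MAT2B encodes the regulatory subunit that tunes this enzyme's response to its product. Uninduced replicates 1 to 5 held 11.8, 13, 18.1, 14.3 and 19.7 CPM. Induced replicates 1 to 5 held 57, 12, 45.6, 35.1 and 44.6 CPM. All induced libraries but replicate 2 exceeded every uninduced one. The means were 15.4 ± 3.35 and 38.8 ± 16.9 CPM (SD, n = 5 each), a log2 fold change of 1.34 ± 0.34 with an edgeR adjusted p of 0.0177. Leaving out induced replicate 2 gave 1.57 and leaving out uninduced replicate 5 gave 1.43, and the call held in all 10 fits with 1 library left out. Offsets for exon GC content, which is 37.8% in MAT2B and the lowest of the 10 genes, lowered the value to 0.82 (adjusted p = 0.0555).

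The log2 ratio of MAT2B to MAT2A counts within a library, which does not depend on scaling, was 2.04 ± 0.51 uninduced and 3.33 ± 1.14 induced (SD, n = 5 each). The difference of 1.29 had a two-sided exact permutation p of 0.0794, and 0.0992 after adjustment over the 5 ratios tested. Without induced replicate 2, at 1.48, the ratio rose by 1.75 (adjusted p = 0.0265).

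The hydrolase step after methyl transfer showed a wide spread between libraries. AHCY is the enzyme that splits S-adenosylhomocysteine into adenosine and homocysteine. Its uninduced levels were 38.6, 29.4, 25.0, 56.6 and 223 CPM in replicates 1 to 5. Its induced levels were 255, 125, 295, 209 and 111 CPM. Every induced library stood above uninduced replicates 1 to 4. Induced replicates 1 and 3 also stood above uninduced replicate 5, and induced replicates 2, 4 and 5 stood below it. The means of 74.5 ± 83.8 and 199 ± 80.1 CPM (SD, n = 5 each) gave a log2 fold change of 1.42 ± 0.58, which did not pass the threshold (edgeR adjusted p = 0.0675). Without uninduced replicate 5 it was 2.40 with an adjusted p of 0.000412, so that 1 library decides the call. DESeq2 with all libraries gave 1.39 (adjusted p = 0.0248).

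AHCYL1, related in sequence to AHCY but known as a partner of the inositol trisphosphate receptor and not as a hydrolase, varied little once induced. It held 224, 219, 123, 268 and 336 CPM uninduced and 298, 318, 290, 293 and 291 CPM induced. Uninduced replicate 3 was the lowest and replicate 5 the highest of the 10 libraries. The log2 fold change was 0.35 ± 0.22 (edgeR adjusted p = 0.210). It was 0.50 without uninduced replicate 5, which passed the threshold (adjusted p = 0.0491), and 0.17 without uninduced replicate 3 (adjusted p = 0.353). The standard deviation was 77.7 CPM over the uninduced and 11.5 CPM over the induced libraries.

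The log2 ratio of AHCYL1 to AHCY was 2.53, 2.89, 2.30, 2.24 and 0.59 uninduced and 0.22, 1.35, -0.03, 0.49 and 1.39 induced. AHCY tags thus gained on AHCYL1 tags, and uninduced replicate 5 again fell within the induced range. The ratio fell by 1.43 (exact permutation p = 0.0238, adjusted 0.0397), and it fell by 1.81 without uninduced replicate 5.

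Of the pair that remakes methionine, the reductase rose and the synthase did not pass the test. MTR, methionine synthase, uses vitamin B12 and methyl-folate. Its levels were 9.19, 13.4, 29.2, 12.4 and 9.67 CPM uninduced and 17.0, 16.1, 12.4, 19.7 and 13.8 CPM induced. Uninduced replicate 3 stood above all other libraries. The log2 fold change was 0.10 ± 0.30 (edgeR adjusted p = 0.800) and 0.48 without that library (adjusted p = 0.0657). MTRR reactivates MTR when its cobalamin is oxidised. It held 5.18, 4.74, 4.72, 5.66 and 5.29 CPM uninduced and 8.20, 5.41, 8.25, 6.41 and 8.02 CPM induced. Only induced replicate 2 lay within the uninduced range, and both groups were tight. The means were 5.12 ± 0.397 and 7.26 ± 1.28 CPM (SD, n = 5 each), and the log2 fold change was 0.50 ± 0.17 (edgeR adjusted p = 0.0359).

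The MTRR call was a near one. It was lost without any 1 library other than uninduced replicate 5 or induced replicate 2, at most to an adjusted p of 0.0937, and the values over all 10 such fits ran from 0.45 to 0.59. It was also lost with offsets for GC content (0.25, adjusted p = 0.213). The log2 ratio of MTRR to MTR was -1.39 ± 0.74 uninduced and -1.12 ± 0.46 induced (SD, n = 5 each), a difference of 0.27 with an exact permutation p of 0.556.

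The serine hydroxymethyltransferases moved in opposite directions. These enzymes pass a carbon from serine to folate, SHMT1 in the cytosol and SHMT2 in the mitochondria. SHMT1 held 7.72, 4.62, 3.61, 10.7 and 31.3 CPM uninduced and 36.3, 16.5, 38.3, 34.1 and 51.0 CPM induced. Uninduced replicate 5 exceeded induced replicate 2 and no other induced library. The means were 11.6 ± 11.4 and 35.2 ± 12.4 CPM (SD, n = 5 each), and SHMT1 rose by 1.6 ± 0.54 on the log2 scale (edgeR adjusted p = 0.0356). Without uninduced replicate 5 the value was 2.38 (adjusted p = 0.000458). The call was lost in 8 of the 10 fits that left out 1 library, at most to an adjusted p of 0.0802, and kept without uninduced replicate 5 and without induced replicate 2. SMCR8, on the opposite strand at the 3′ end, had at most 4 counts.

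SHMT2 held 62.7, 62.2, 77.8, 57.0 and 45.8 CPM uninduced and 38.0, 47.6, 46.3, 43.8 and 49.7 CPM induced. The first 4 uninduced replicates lay above all induced libraries, and uninduced replicate 5 lay within the induced range. SHMT2 fell by 0.44 ± 0.16 on the log2 scale (edgeR adjusted p = 0.0477), from 61.1 ± 11.5 to 45.1 ± 4.52 CPM (SD, n = 5 each). Without uninduced replicate 5 it fell by 0.54 (adjusted p = 0.00738). The call was lost with total-count scaling (-0.19, adjusted p = 0.287), with offsets for GC content (-0.12, adjusted p = 0.452) and without any 1 library other than uninduced replicate 5 or induced replicate 2. SHMT2 has the highest exon GC content of the 10 genes, 56.8%. NDUFA4L2, on the opposite strand at the 3′ end of SHMT2, was at 0 in these libraries.

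The log2 ratio of SHMT2 to SHMT1 was 3.02, 3.74, 4.42, 2.41 and 0.55 in uninduced replicates 1 to 5. It was 0.06, 1.53, 0.28, 0.36 and -0.04 in induced replicates 1 to 5. Uninduced replicate 5 was again within the induced range, and the other 4 were above it. The ratio fell by 2.39 (exact permutation p = 0.0159, adjusted 0.0397). It fell by 2.96 without uninduced replicate 5 and fell by 1.99 without uninduced replicate 3.

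**Figure D2:**
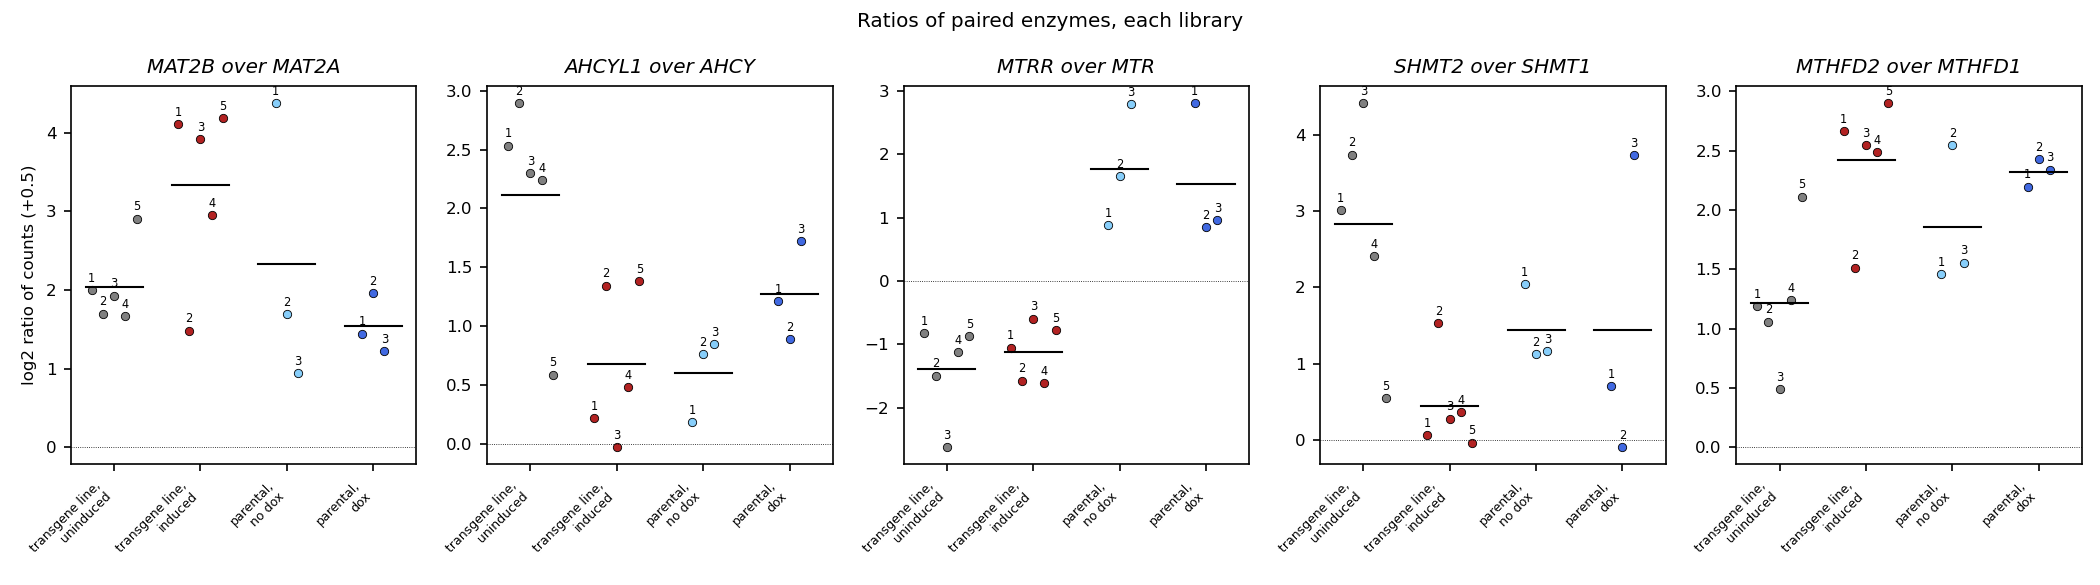
Log2 ratio of the counts of 2 related genes within each library (vertical axis, 0.5 added to each count), by group. Points are libraries numbered by replicate, bars are group means and the dotted line marks equal counts. The SHMT2 to SHMT1 ratio falls from a mean of 2.83 to 0.44 in the transgene line, and uninduced replicate 5 lies with the induced libraries.

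The folate dehydrogenases also split between the compartments. MTHFD1 is the cytosolic enzyme that interconverts folate one-carbon units, and it had the smallest fold change of the 10 genes. It held 39.1, 38.2, 35.2, 46.9 and 44.2 CPM uninduced and 41.2, 49.0, 43.6, 40.0 and 34.1 CPM induced. The groups lay in the same range, and the log2 fold change was 0.03 ± 0.15 (edgeR adjusted p = 0.875). Its sign turned with DESeq2 size factors and with GC offsets. ZBTB25, on the opposite strand at the 3′ end of MTHFD1, had at most 184 counts in these libraries. MTHFD1 had between 552 and 1041. MTHFD2, the mitochondrial dehydrogenase and cyclohydrolase of dividing cells, held 89.0, 79.5, 49.5, 111 and 191 CPM uninduced and 261, 140, 255, 224 and 255 CPM induced. Uninduced replicate 5 exceeded induced replicate 2 and no other induced library. The means were 104 ± 53.4 and 227 ± 50.7 CPM (SD, n = 5 each), and MTHFD2 rose by 1.12 ± 0.32 on the log2 scale (edgeR adjusted p = 0.0220). The value was 1.45 without uninduced replicate 5 (adjusted p = 0.000684) and 1.26 without induced replicate 2. Without uninduced replicate 1 or 2, or induced replicate 1, 3 or 4, the call was lost, at most to an adjusted p of 0.0567. SLC4A5, on the opposite strand at the 3′ end, had at most 10 counts.

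The log2 ratio of MTHFD2 to MTHFD1 was 1.22 ± 0.58 uninduced and 2.42 ± 0.53 induced (SD, n = 5 each). It rose by 1.20 (exact permutation p = 0.0159, adjusted 0.0397). Of the 5 ratios, those of AHCYL1 to AHCY, SHMT2 to SHMT1 and MTHFD2 to MTHFD1 passed the threshold. In the fits with 1 library left out all 3 passed it without uninduced replicate 5 or without induced replicate 2, and none did without any other.

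**Figure D3:**
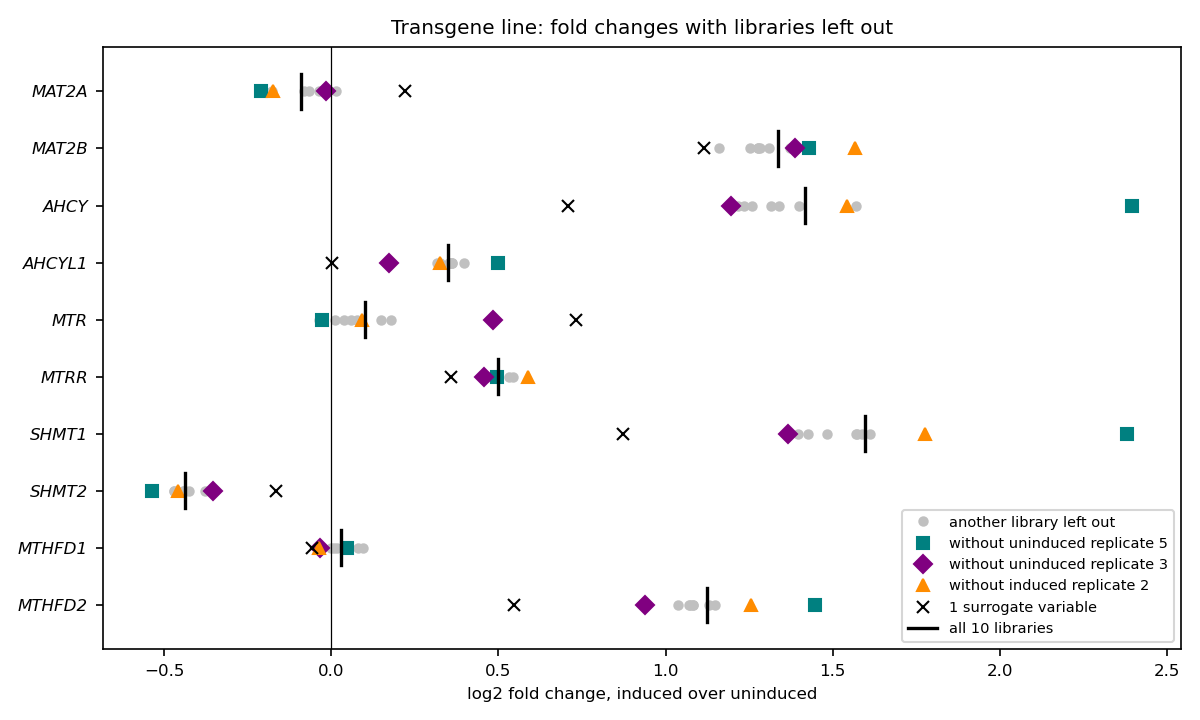
Log2 fold change of each gene, induced over uninduced (horizontal axis), with all 10 libraries (black bars), with 1 library left out (symbols) and with 1 surrogate variable in the fit (crosses). AHCY moves from 1.42 to 2.40 and SHMT1 from 1.6 to 2.38 without uninduced replicate 5.

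Doxycycline alone was tested in the parental line. No gene was called there, 0% of 9124 by edgeR with Benjamini-Hochberg adjustment, where 267 had an unadjusted p below 0.05 and DESeq2 called 1. MAT2A and MTR, with as few as 3 and 8 counts, did not reach the base mean of 20 and were not tested. Of the other 8 genes none was called by edgeR or DESeq2, none had an unadjusted p below 0.05, and the adjusted p was 0.997 for each. Fold changes were above 0 for MTRR, MTHFD1 and MTHFD2 and below 0 for the other 5, with a median of -0.20.

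The values were wide. MTHFD2 held 172, 462 and 255 CPM in untreated replicates 1 to 3 and 438, 679 and 258 CPM in treated ones, a log2 fold change of 0.63 ± 0.50 (SE, n = 3 each). MAT2B held 44.3, 34.1 and 24.3 CPM untreated and 27.5, 33.1 and 19.6 CPM treated, a log2 fold change of -0.34 ± 0.43. SHMT1 held 23.4, 38.4 and 32.9 CPM untreated and 33.2, 35.9 and 8.15 CPM treated, and treated replicate 3 was below all others. AHCY was the 1 gene of the 8 whose parental groups did not overlap, against 9.52% of all genes tested. It held 154, 163 and 129 CPM untreated and 85.4, 120 and 61.9 CPM treated, a log2 fold change of -0.74 ± 0.39. Within-library ratios showed no difference that passed the test in 3 against 3 libraries, where the smallest possible exact permutation p is 0.1. The ratio of AHCYL1 to AHCY reached that p, rising by 0.67, the direction opposite to that of the transgene line.

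**Figure D4:**
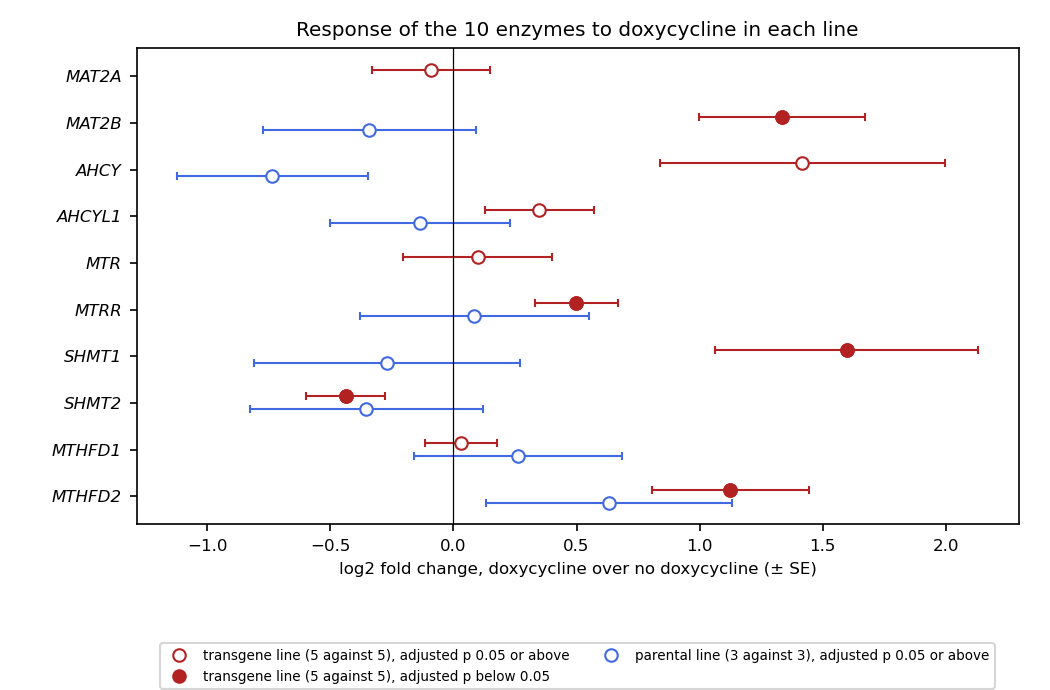
Log2 fold change with its SE, doxycycline over no doxycycline (horizontal axis), for each gene in the transgene line (red) and the parental line (blue), with filled points at an adjusted p below 0.05. MAT2B, MTRR, SHMT1 and MTHFD2 are filled above 0 and SHMT2 below 0, and no parental point is filled.

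Whether the lines responded differently was tested directly over the 16 libraries. The differences between the lines in opposite-strand tags and in tags outside genes need not cancel in this contrast, and their part was not tested. In the parental line the log2 fold change was 0.96 for MMACHC and 0.97 for its partner PRDX1. In the transgene line it was -0.07 and -1.02. Of 12265 genes, 2.98% were called, and none of the 10 genes was among them by edgeR or by DESeq2. Unadjusted p was below 0.05 for MAT2B, AHCY and SHMT1, 3 of the 10 genes, and for 3197 of all 12265. The response of AHCY was larger in the transgene line by 1.99 ± 0.78 (log2, SE, edgeR adjusted p = 0.124), that of SHMT1 by 1.70 ± 0.80 (adjusted p = 0.189) and that of MAT2B by 1.44 ± 0.52 (adjusted p = 0.1). Without uninduced replicate 5 the differences for AHCY (2.88, edgeR adjusted p = 0.00618) and SHMT1 (2.40, adjusted p = 0.0176) passed the threshold, and without induced replicate 2 that for MAT2B did (1.66, adjusted p = 0.0243). MTHFD2 differed by 0.29 ± 0.55 and SHMT2 by -0.33 ± 0.45. None of the 5 calls in the transgene line is thus shown to be particular to it.

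Across the 10 transgene libraries the genes fell into a pattern that followed single libraries as much as groups. These correlations of log2 CPM describe 10 libraries that share the group difference and the same outlying replicates. SHMT1 and MTHFD2 had the highest Pearson correlation of any pair (r = 0.98), followed by AHCY with MTHFD2 (0.93) and AHCY with SHMT1 (0.92). SHMT2 ran opposite to AHCY (-0.94), MTHFD2 (-0.93) and SHMT1 (-0.89). MAT2A and MTR correlated with each other (0.65).

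Among all 13038 tested genes, the closest to MAT2A were PHAX (r = 0.93) and the pseudogenes YBX1P6 (0.93) and RPL22P1 (0.92). MAT2B was closest to INO80D (0.99), AHCY to RRN3 (0.995), AHCYL1 to PIGC (0.99), MTR to WNK1 (0.98) and MTRR to GK5 (0.98). SHMT1 was closest to WTIP (0.997), SHMT2 to SLC26A6 (0.99) and MTHFD1 to MAP4 (0.95). The gene closest to MTHFD2, at 0.999, was ENSG00000263272, a long non-coding RNA gene on chromosome 17.

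The surrounding pathways were covered by 54 further genes, of which 41 were tested in the transgene line. Induction raised 8 and lowered 8 of them, 39.0% of those tested against the background of 39.8%, and their median log2 fold change was 0.16. With 1 surrogate variable none of them was called, and 1 gene in all was. Without uninduced replicate 5, 15 were higher and 9 lower, against 4049 and 3555 genes in all. Without induced replicate 2 it was 12 and 8, against 3251 and 3102. Without uninduced replicate 1, 2 or 4, or induced replicate 1, 3 or 4, 1 was higher and 7 lower. In those fits 916 to 1385 genes in all were higher and 929 to 1908 lower. The 1 higher pathway gene was APIP, so the calls of all other raised pathway genes were lost there. Without uninduced replicate 3 it was 5 and 7 pathway genes, against 1758 and 1997 in all. Without induced replicate 5 it was 2 and 8, against 1724 and 2008. Of 9 other genes of the methionine cycle 5 were tested. ADK, adenosine kinase, rose by 0.60 ± 0.20, while ADA, adenosine deaminase, fell by 0.82 ± 0.18 and SLC25A26, which carries S-adenosylmethionine into mitochondria, fell by 0.92 ± 0.22 (log2, SE). ADA is 1 of 3 of the 41 genes whose groups did not overlap, where 7.3% of all genes did not, at 16.6, 18.9, 21.7, 16.6 and 12.7 CPM uninduced and 7.08, 10.5, 9.14, 10.8 and 11.3 CPM induced. METTL16, which regulates MAT2A mRNA, was at -0.14 ± 0.29 and was not called.

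Of 6 tested cytosolic folate genes outside the 10, 1 was called. GART, a purine synthesis enzyme, rose by 1.09 ± 0.40 (edgeR adjusted p = 0.0478), while TYMS, thymidylate synthase, was not called. Uninduced replicate 5 held 65.2 CPM of GART, and the other uninduced libraries at most 22.6 CPM. None of the 7 tested mitochondrial folate genes was called. None of the 3 serine synthesis genes was called, with PSAT1 at 1.09 ± 0.41 (edgeR adjusted p = 0.053), PHGDH at -0.48 ± 0.21 and PSPH at -0.19 ± 0.19. These 3, SHMT2 and MTHFD2 are also known as targets of ATF4, the transcription factor of the integrated stress response. Of 5 genes that take up, retain or release folate, 3 were tested and all 3 were called, against 39.8% of all tested genes. GGH, which trims polyglutamates, rose by 1.51 ± 0.54 (edgeR adjusted p = 0.0446). Uninduced replicate 5 held 98.4 CPM of GGH, and the other uninduced libraries at most 28.7 CPM. The carrier SLC19A1 fell by 0.99 ± 0.21 (adjusted p = 0.01755). FPGS, which adds polyglutamates, fell by 0.51 ± 0.18 (adjusted p = 0.0445).

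The genes of polyamine synthesis, methionine salvage and transsulfuration held the largest change of the surrounding pathways. APIP, an enzyme of methionine salvage, held 1.27, 0.88, 1.95, 1.21 and 3.47 CPM uninduced and 27.1, 1.79, 27.5, 19.4 and 26.5 CPM induced. Induced replicate 2 was again among the uninduced libraries. APIP rose by 3.52 ± 0.63 on the log2 scale (edgeR adjusted p = 0.0176). MTAP, which starts the salvage, rose by 1.08 ± 0.35, while SRM, spermidine synthase, fell by 1.13 ± 0.25. CTH, of transsulfuration, rose by 1.62 ± 0.51 from counts as low as 3. Its call was lost in 7 of the 10 fits that left out 1 library, as was that of ABCD4 in 8.

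Of 7 tested genes of vitamin B12 handling, ABCD4, a lysosomal cobalamin exporter, rose by 1.86 ± 0.63 and the trafficking factor MMADHC by 0.70 ± 0.24. The adenosyltransferase MMAB fell by 1.06 ± 0.25. CD320, the receptor for transcobalamin, fell by 1.12 ± 0.25 and TCN2, transcobalamin itself, by 1.28 ± 0.26. TCN2 held 3.40, 3.39, 4.00, 3.19 and 1.82 CPM uninduced and 1.12, 1.46, 1.08, 1.01 and 1.78 CPM induced. CD320 held 83.4, 86.1, 102, 65.8 and 45.3 CPM uninduced and 21.9, 45, 34.1, 32.5 and 42.2 CPM induced. In both, the groups did not overlap, by a narrow margin at uninduced replicate 5.

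**Figure D5:**
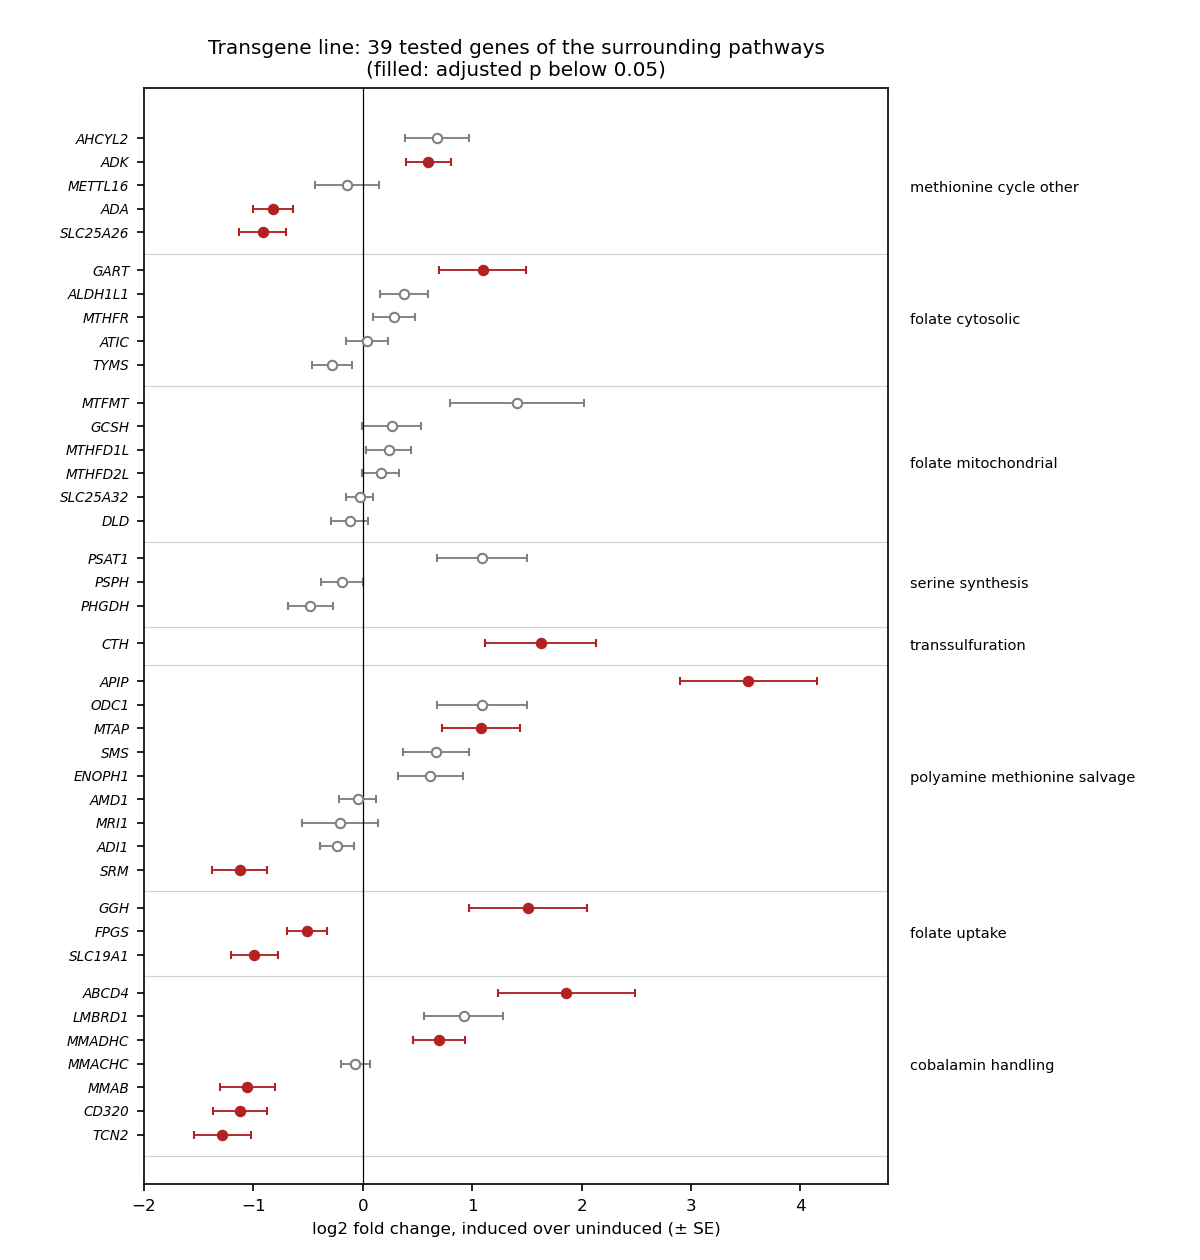
Log2 fold change with its SE, induced over uninduced (horizontal axis), for 39 of the 41 tested genes of the surrounding pathways, grouped by role, with filled red points at an adjusted p below 0.05. Filled points lie on both sides of 0, 8 higher and 8 lower, and APIP at 3.52 is the farthest.

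In the parental line 32 of these 54 genes were tested and none was called. In the direct test of the responses 2 of 41 passed the threshold, APIP and SLC25A26, against 2.98% of all genes. The response of APIP was higher in the transgene line by 4.62 ± 1.08 (edgeR adjusted p = 0.0408), but APIP entered this test only through the transgene line. In the parental line it was below the base mean, with between 1 and 20 counts, at 12.3, 11.6 and 4.49 CPM untreated and 1.43, 7.98 and 0.815 CPM treated. That of SLC25A26 was lower by 1.97 ± 0.47 (edgeR adjusted p = 0.0433). In 8 of the 16 fits with 1 library left out no gene at all was called in this test, these included.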

How the data were processed

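The 3′ end tags of 16 libraries had been counted by the authors with Lexogen's QuantSeq REV pipeline for GRCh38, and the deposited files hold unnormalized counts per Ensembl gene. Aligner settings, annotation release and use of strand are not given in the sources used here. Transgene and parental libraries were sequenced on different instruments at different sites, so line and run cannot be told apart. The 5 summary entries and 92 spike-in entries, all at 0, were left out. Names and coordinates came from GENCODE release 44, which named 56104 of 60107 genes, and promoters from RefSeq.

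Each line was fitted apart, on genes whose base mean exceeded 20, with edgeR 4.0.16 in R 4.3.3 (quasi-likelihood, TMM, Benjamini-Hochberg over all tested genes, threshold 0.05). Levels are TMM-scaled CPM, and correlations used log2 CPM with a prior count of 2. The difference of responses was a contrast of 4 group means. Ratios of counts (0.5 added) were compared by two-sided exact permutation tests (scipy 1.17.1), adjusted over 5. The scripts were tested on simulated data. Alternatives were DESeq2 1.42.0 and its size factors, total counts, other filters, GC offsets (span 0.5), a replicate block, 1 surrogate variable (sva 3.50.0) and each library left out. The methods call the transgene libraries biological replicates and the parental ones separate cultures. Counting intervals were not used. No pair of replicates agreed within counting noise.

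The genes, lists and tests were chosen with earlier results of these data known. Named besides the 10 genes are the pathway genes called in the transgene line without overlap, the 3 largest calls each way, RNMT, and the genes most correlated with each of the 10 (3 for MAT2A, 1 for the others). Other pathway genes were named by role after their values were seen, and some uncalled ones are not reported here singly.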

Additional observations from a re-analysis of the deposited data

Results flagged for a closer look

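Of 48 groups of 5 transgene libraries checked for a library far from the others, 8 had one. The rule would flag about 1 in 20 groups of independent normal values. These groups share libraries and genes, and levels were taken as CPM without logs. That share is therefore no yardstick for the 8. Uninduced replicate 5 was that library for AHCY at 222.9 CPM, for SHMT1 at 31.3 CPM, for ABCD4 at 11.5 CPM, for the log2 ratio of MAT2B to MAT2A at 2.91 and for that of AHCYL1 to AHCY at 0.59. Uninduced replicate 3 was it for MTR, at 29.2 CPM. Induced replicate 2 was it for AHCYL1 at 318 CPM, in a group with little spread, and for the log2 ratio of SHMT2 to SHMT1 at 1.53.

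Responses that differed between the lines in the direct edgeR test were those of APIP (4.62 on the log2 scale, adjusted p = 0.0408), SLC25A26 (-1.97, adjusted p = 0.0433) and RNMT (2.43, adjusted p = 0.0258), each as the transgene line minus the parental line. APIP entered this test only through the transgene line, since it had between 1 and 20 counts in the parental libraries and was not tested there.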

How the results depend on the processing

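Of the 5 called genes among the 10, MAT2B alone kept its call in all 10 fits with 1 library left out. ADA, APIP, CD320, SLC25A26, SRM, TCN2 and RNMT also kept theirs. CTH, ABCD4, ADK, GART, GGH, MTAP and MMADHC did not. Over 9 alternative settings with all libraries, SHMT1 and MTHFD2 kept their calls in 8 each and MAT2B in 6. MTRR kept its call in 4 and SHMT2 in 3. With 1 transgene library left out, between 1 and 6 of the 10 genes were called higher and between 0 and 1 lower, with 1 and 15 and with 7 and 9 as the limits for the pathway genes higher and lower, and 916 to 4049 and 929 to 3555 over all genes. The highest of these counts, for the 10 genes, the pathway genes and all genes, came without uninduced replicate 5, and the cause was not tested. The ratio differences then ran from 1.07 to 1.75 (MAT2B to MAT2A), from -1.81 to -1.23 (AHCYL1 to AHCY), from -0.043 to 0.41 (MTRR to MTR), from -2.96 to -1.99 (SHMT2 to SHMT1) and from 1.02 to 1.43 (MTHFD2 to MTHFD1). In the parental line no gene of the 10 was called in any fit (0 to 0), and in the difference of responses between 0 and 2 were.

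Changed counts by setting were as follows. Total counts alone gave 0 of the 10 genes lower, 13 pathway genes higher, and 4022 and 1401 genes in all higher and lower. No filter gave 3 of the 10 higher and 0 lower. Offsets for GC content gave 2 of the 10 higher (SHMT1 and MTHFD2) and 0 lower, 4 pathway genes higher and 1545 genes in all higher. With 1 surrogate variable, 0 of the 10 and 0 pathway genes were called in either direction, and 1 gene in all was higher and 0 lower. The causes were not tested. In the parental line, counts as low as 3 limit the precision.

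Replicate numbers did not pair the libraries, since same-numbered deviations had correlations from -0.37 to 0.63 among the transgene pairs and from -0.42 to 0.24 among the parental ones, and 1 of 5 uninduced and 2 of 5 induced libraries correlated best with their own number. With a replicate block 0 of the 10 genes were lower, with and without GC offsets, AHCY was called (1.96, edgeR adjusted p = 0.0345) and MTRR was not (0.49, adjusted p = 0.0658). Sign flips within replicate numbers, a replicate block for the ratios, leave the differences at -1.43, -2.39 and 1.20 by construction, and gave an adjusted exact p of 0.156. The exact p was 0.125 for AHCYL1 to AHCY and 0.0625 for the other two, the smallest that 5 pairs allow, so this test could not pass the threshold.

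Signs turned only for values that had not passed the test. MTHFD1 was at -0.0049 with DESeq2 size factors, -0.0050 with DESeq2, -0.16 with GC offsets, -0.17 with these and the replicate block, and -0.057 with the surrogate variable. MAT2A was at 0.15 with total counts and 0.22 with the surrogate variable, and MTR at -0.15 with GC offsets. With 1 library left out MAT2A ran from -0.21 to 0.015, MTR from -0.038 to 0.48 and MTHFD1 from -0.036 to 0.096. In the parental line MTRR was at -0.019 with total counts, -0.024 with the replicate block and -0.026 with the block and GC offsets. With 1 library left out AHCYL1 ran there from -0.21 to 0.11, MTRR from -0.17 to 0.35, SHMT1 from -0.54 to 0.091, SHMT2 from -1.004 to 0.040 and MTHFD1 from -0.0092 to 0.51. The parental ratio of SHMT2 to SHMT1 differed by -0.011 and -0.093 with pseudocounts of 1 and 5. With 1 library left out the parental differences ran from -1.49 to 0.23 (MAT2B to MAT2A), from -0.87 to 0.27 (MTRR to MTR) and from -1.14 to 0.78 (SHMT2 to SHMT1).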
